A study of Mus musculus with 4 samples.

Results

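Described here are 10 mouse genes that act in Wnt secretion and in the noncanonical branch of Wnt signalling, out of 55487 genes in the deposited count table. They were picked by symbol, with earlier results of these data known. Wls and Porcn stand for Wnt export, and Ror1, Ror2 and Ryk for the receptors. Vangl1, Vangl2, Prickle1, Prickle2 and Celsr1 stand for the planar polarity core. The 4 libraries came from cells of C57 mouse lower incisors at postnatal day 30. Sorting was set to remove cells with CD45 (leukocytes), Ter119 (erythroid cells) or Tie2 (endothelium) on their surface. The knockout libraries KO 1 and KO 2 carried floxed Ptip alleles together with Sp7-cre, a Cre transgene under the promoter of a bone and odontoblast lineage factor. The control libraries WT 1 and WT 2 carried floxed Ptip alleles and no Cre, so the presence of Cre and the loss of Ptip cannot be told apart. Ptip (gene symbol Paxip1) encodes a subunit of histone H3 lysine 4 methyltransferase complexes, and the series title links it to tooth development through the Wnt pathway.

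Wnt proteins are lipid-modified in the endoplasmic reticulum by the acyltransferase Porcn and then carried to the cell surface by the transmembrane protein Wls. Noncanonical ligands, with Wnt5a as the best studied, signal through the receptor tyrosine kinase-like proteins Ror1, Ror2 and Ryk without beta-catenin. In the planar polarity pathway, Celsr, Vangl and Prickle proteins form asymmetric complexes at cell borders and orient cells within a tissue plane.

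Library totals were 19142757 and 17770831 counts in KO 1 and KO 2, against 15154246 and 15394782 in WT 1 and WT 2, and 3 counts corresponded to values of 0.153 to 0.208 on the counts-per-million scale (CPM). The targeted gene Paxip1 stood at 5.68 and 3.97 CPM in KO 1 and KO 2, against 28.2 and 44.1 CPM in WT 1 and WT 2. The samples are labelled as dental pulp, but Ambn, an enamel matrix gene of ameloblasts, reached 30949 and 41041 CPM in KO 1 and KO 2, and 52479 and 18110 CPM in WT 1 and WT 2. Ptprc, the gene of the gated-out CD45, was counted in all 4 libraries, at 39.1 and 9.23 CPM in KO 1 and KO 2 and 140 and 144 CPM in WT 1 and WT 2. The libraries of each group differed in sex-linked genes: Xist stood at 116 and 5.82 CPM in KO 1 and KO 2, and 58.1 and 210 CPM in WT 1 and WT 2. The Y-linked Ddx3y stood at 1.995 and 117 CPM in KO 1 and KO 2, and 43.0 and 8.82 CPM in WT 1 and WT 2. Both transcripts were counted in every library, and WT 1 held them at the most similar levels. The labels do not say whether libraries came from separate animals or pools. With such sex-linked differences, the libraries of a group were not repeats of the same cell sample. The p-values rest on the spread among these libraries, and how many animals it covers is not known.

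None of the 10 genes passed edgeR's quasi-likelihood test at an adjusted p of 0.05, and neither did any other of the 17128 genes tested (0.0% called higher and 0.0% called lower). At an unadjusted p under 0.05, Wls and Ror2 were on the higher side in the knockouts (2 of 10, against 7.32% of all genes tested) and Celsr1 on the lower side (1 of 10, against 9.89%). DESeq2 called Wls and Ror2 higher (2 of 10, against 2.72% of its 17361 genes) and none of the 10 lower (5.7%). The same calls were made by edgeR on all genes with a count (1.43% of those called higher and 3.2% lower), and limma-voom called 0 genes in all. In 6 of the 10 genes both knockout libraries lay above both controls, compared with 25.8% of all genes tested, and these were Wls, Porcn, Ror2, Ryk, Vangl2 and Prickle2. In Celsr1 both knockouts lay below both controls, as in 24.8% of all genes tested, and Ror1, Vangl1 and Prickle1 overlapped. The median fitted log2 fold change of the 10 was 0.64, beside 0.0024 over all genes tested, and it was 1.08 without WT 2 and 0.47 without KO 2. A split of 2 against 2 libraries allows no exact permutation p below 0.333. As the 10 genes were chosen with earlier results of these data known, these shares and medians do not test the list.

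**Figure D1:**
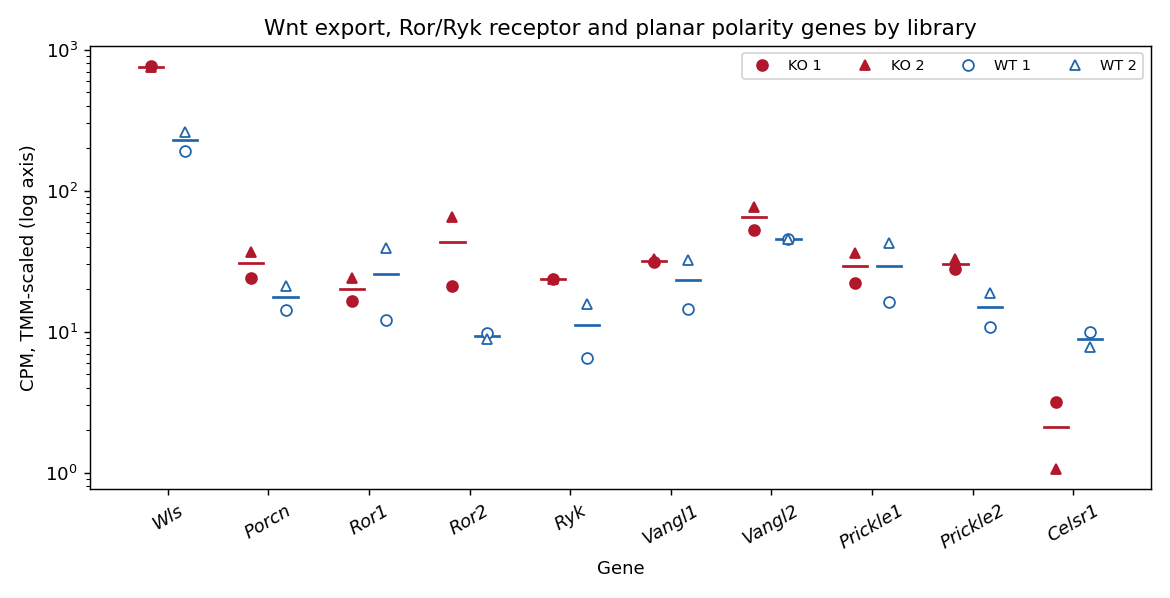
Normalised expression of the 10 genes in each library, in CPM with TMM scaling on a log axis, with knockouts (filled) left of controls (open) and bars at the group means. Wls lies far above the others, Ror2 is split between the knockouts, and Celsr1 is the gene whose knockouts both lie below the controls.

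The windows upstream of Wls and Ror2, the pair with the smallest p-values, are shown because these genes carry the widest differences among the 6. RefSeq gave start sites for 7 of the 10 genes (11 windows on GRCm38.p6), with none listed for Porcn, Vangl1 and Celsr1. Each sequence covers the 250 bases before the start, 5′ to 3′ on the gene's strand, with GC boxes in capitals (GGGCGG or its reverse complement CCGCCC). The Wls window is chr3:159839400-159839649 on the plus strand, and the Ror2 window is chr13:53286125-53286374 on the minus strand.
Wls: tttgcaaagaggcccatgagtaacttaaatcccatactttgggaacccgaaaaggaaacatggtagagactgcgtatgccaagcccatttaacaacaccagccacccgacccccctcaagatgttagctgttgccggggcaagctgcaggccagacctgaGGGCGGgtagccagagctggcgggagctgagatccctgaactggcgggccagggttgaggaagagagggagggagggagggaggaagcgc
Ror2: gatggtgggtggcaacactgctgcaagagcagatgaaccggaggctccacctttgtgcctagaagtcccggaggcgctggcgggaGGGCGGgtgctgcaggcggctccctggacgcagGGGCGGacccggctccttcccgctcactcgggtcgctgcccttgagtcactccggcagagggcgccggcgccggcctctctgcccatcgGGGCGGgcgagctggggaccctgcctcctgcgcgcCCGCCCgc
The Wls window held 1 GC box and 8 CpG dinucleotides, and the Ror2 window held 4 GC boxes and 24 CpG dinucleotides. At least 1 GC box stood in 10 of the 11 windows, beside 32.7% of all 32851 windows in the table. The TCF/LEF core CTTTGA, searched on both strands, stood in 2 of the 11 (1 window each of Ror1 and Prickle2), beside 13.8% of all windows. The median number of CpG dinucleotides was 16 in the 11 windows, beside 6 in all windows. These matches describe letters only and are no evidence of binding.

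Among the export genes, Wls (ENSMUSG00000028173), on chromosome 3 from 159839672 to 159938664 of GRCm38, stood out in level. Its knockouts matched closely, as did those of Ryk and Vangl1 below. Wls had 766 and 754 CPM in KO 1 and KO 2, against 193 and 262 CPM in WT 1 and WT 2. The groups were far apart, and the spread within the knockouts was smaller than within the controls. The means were 760 ± 8.96 CPM in knockouts and 228 ± 49.3 CPM in controls (SD, n = 2 each), and the fitted ratio was 3.34 (log2 fold change 1.74, SE 0.34). The edgeR adjusted p was 0.152, whereas it was 0.000969 in DESeq2 and 0.0765 in limma-voom. With each library left out in turn the log2 fold change stayed between 1.56 and 1.94.

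Porcn (ENSMUSG00000031169), the acyltransferase gene, lies on the X chromosome from 8193848 to 8206525. It had 24.1 and 36.9 CPM in KO 1 and KO 2, against 14.4 and 21.1 CPM in WT 1 and WT 2. Both knockouts lay above both controls, but KO 1 was closer to WT 2 than to KO 2. The log2 fold change was 0.78 (SE 0.44) and the edgeR adjusted p was 0.426. Xist, which marks an inactive X chromosome, differed between the libraries of each group as given above, and its part in the Porcn values was not tested.

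The receptor genes gave unlike values. Ror2 (ENSMUSG00000021464), the Wnt5a receptor gene on chromosome 13 from 53109312 to 53286124, had the highest fitted ratio of the 10 genes. It had 20.98 and 65.0 CPM in KO 1 and KO 2, against 9.71 and 8.82 CPM in WT 1 and WT 2. The controls were nearly equal and low, while KO 2 stood 3.10-fold above KO 1. The fitted ratio was 4.63 (log2 fold change 2.21, SE 0.60, edgeR adjusted p = 0.174), and DESeq2 gave an adjusted p of 0.00608. KO 2 set the size of this difference. Without it the log2 fold change was 1.22 (edgeR adjusted p = 0.635), and without KO 1 it was 2.82 (edgeR adjusted p = 0.00199, in a fit that called 1.13% of genes higher). A fit without a knockout library takes the spread from the controls alone, and without KO 1 its prior degrees of freedom were 97.9, so that p hardly used the spread of Ror2 itself.

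Ror1 (ENSMUSG00000035305), the paralogue of Ror2 on chromosome 4, had 16.4 and 23.9 CPM in KO 1 and KO 2, against 12.1 and 39.3 CPM in WT 1 and WT 2. Both knockouts lay between the controls, which differed 3.26-fold from each other. The log2 fold change was -0.36 (SE 0.60, edgeR adjusted p = 0.831), and it was 0.71 without WT 2 and -0.95 without WT 1, so no direction was established for Ror1. Ryk (ENSMUSG00000032547), on chromosome 9, encodes a receptor with an inactive kinase domain. It had 23.6 and 23.7 CPM in KO 1 and KO 2, against 6.45 and 15.7 CPM in WT 1 and WT 2. The knockouts were almost the same and the controls differed 2.43-fold, and the log2 fold change was 1.09 (SE 0.53, edgeR adjusted p = 0.360). It was 0.61 without WT 1 and 1.84 without WT 2.

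Within the Ror pair, the share of counts did not depend on library scaling. Ror2 took 56.2% of the counts of Ror1 and Ror2 in KO 1 (95% Wilson interval 52.5% to 59.7%) and 73.1% in KO 2 (70.9% to 75.2%). In the controls it took 44.6% in WT 1 (39.2% to 50.1%) and 18.3% in WT 2 (15.7% to 21.2%). Both knockouts were above both controls, and the controls lay further apart than the knockouts. These intervals cover counting error only. Per kilobase of annotated exon, the level of Ror2 was 1.74 and 3.70 times that of Ror1 in KO 1 and KO 2, and 1.09 and 0.305 times in WT 1 and WT 2.

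**Figure D2:**
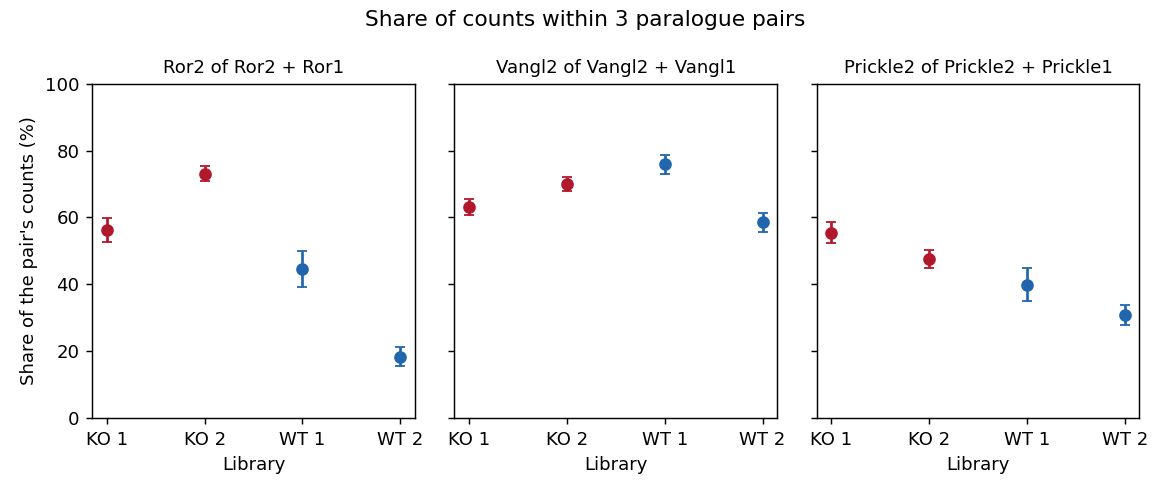
Share of the counts of each paralogue pair that fell on Ror2, Vangl2 or Prickle2, in percent, in each library (knockouts red, controls blue), with 95% Wilson intervals. For Ror2 and Prickle2 both knockouts lie above both controls, and for Vangl2 the groups overlap.

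The planar polarity genes lay on both sides of their controls. Vangl2 (ENSMUSG00000026556), a transmembrane core protein gene on chromosome 1, had 53.1 and 76.8 CPM in KO 1 and KO 2, against 45.8 and 45.4 CPM in WT 1 and WT 2. The controls were almost equal, KO 1 lay just above them, and the log2 fold change was 0.51 (SE 0.36, edgeR adjusted p = 0.530). It was 0.76 without KO 1 and 0.26 without KO 2. Vangl1 (ENSMUSG00000027860), its paralogue on chromosome 3, had 31.0 and 32.7 CPM in KO 1 and KO 2, against 14.5 and 32.1 CPM in WT 1 and WT 2. WT 1 alone stood apart, and without it the log2 fold change of 0.45 (SE 0.48, edgeR adjusted p = 0.696) was 0.012. An antisense gene, Gm16160, overlaps 8 of the 7156 exonic bases of Vangl1, and reads there cannot be assigned by strand. Vangl2 took 63.1% and 70.1% of the pair's counts in KO 1 and KO 2, with 95% Wilson intervals of 60.8% to 65.4% and 68.0% to 72.1%. It took 75.9% and 58.6% in WT 1 and WT 2, with intervals of 73.0% to 78.7% and 55.8% to 61.3%, so the groups overlapped.

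Prickle proteins are cytoplasmic partners of Vangl in the core complex. Prickle2 (ENSMUSG00000030020), on chromosome 6, had 27.7 and 32.9 CPM in KO 1 and KO 2, against 10.8 and 18.9 CPM in WT 1 and WT 2. The groups did not overlap, and the fitted ratio was 2.04 (log2 fold change 1.03, SE 0.45, edgeR adjusted p = 0.303). Without WT 1 the log2 fold change was 0.70. Prickle1 (ENSMUSG00000036158), on chromosome 15, had 22.3 and 36.3 CPM in KO 1 and KO 2, against 16.3 and 42.6 CPM in WT 1 and WT 2. Both knockouts lay between the controls and the log2 fold change was -0.01 (SE 0.55, edgeR adjusted p = 0.996), with a sign that depended on the library scaling and on which library was left out. Prickle2 took 55.4% and 47.6% of the pair's counts in KO 1 and KO 2, with 95% Wilson intervals of 52.3% to 58.5% and 44.8% to 50.4%. It took 39.9% and 30.8% in WT 1 and WT 2, with intervals of 35.2% to 44.8% and 27.9% to 33.7%. Both knockouts were above both controls, and the intervals of KO 2 and WT 1 met at their ends.

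Celsr1 (ENSMUSG00000016028), on chromosome 15 from 85898929 to 86033777, encodes the atypical cadherin that joins polarity complexes of neighbouring cells and is best known from epithelia. It had 62 and 19 counts in KO 1 and KO 2, against 144 and 123 counts in WT 1 and WT 2, the fewest of the 10 genes in each library except WT 1, where Ryk and Ror2 had fewer. This corresponded to 3.17 and 1.06 CPM in KO 1 and KO 2, against 9.99 and 7.80 CPM in WT 1 and WT 2. Both knockouts were lower than both controls and KO 2 was lowest. The fitted level was 4.19-fold lower (log2 fold change -2.07, SE 0.76, edgeR adjusted p = 0.240), and DESeq2 gave an adjusted p of 0.0743. The log2 fold change was -3.05 without KO 1 and -1.44 without KO 2.

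**Figure D3:**
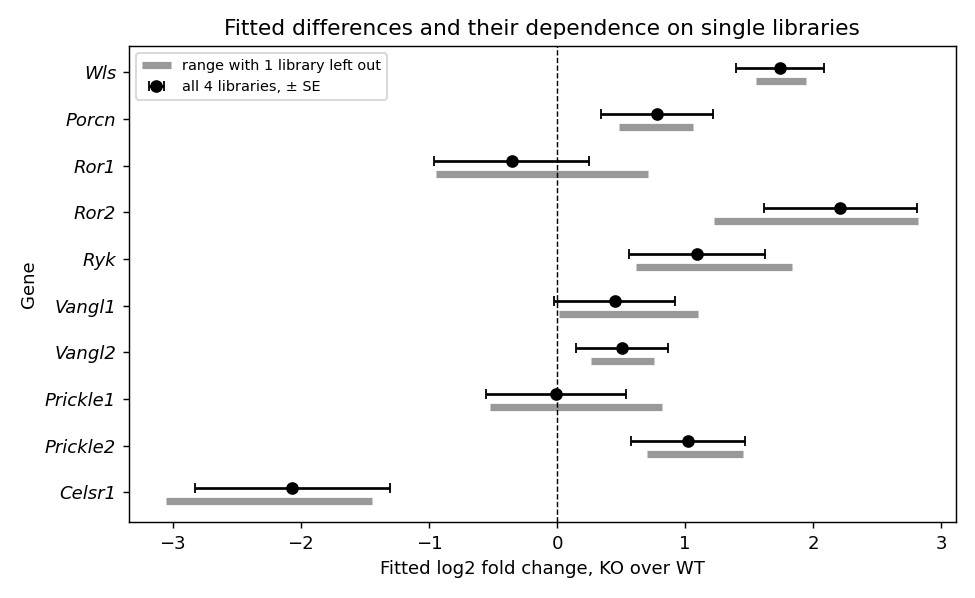
Fitted log2 fold change of the 10 genes, knockout over control, with SE (points), and its range when each library was left out in turn (grey bars). The bars of Ror1 and Prickle1 cross 0, that of Vangl1 reaches 0.012, and the bar of Wls is short.

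Cell type markers were counted in the same libraries. Over all genes tested, 25.8% were higher and 24.8% were lower in both knockouts, and these shares stand behind each count below. Of 12 ameloblast and dental epithelium markers, 8 were lower and 0 were higher in both knockouts. Their summed level was 34911 and 42031 CPM in KO 1 and KO 2, against 63631 and 22853 CPM in WT 1 and WT 2, most of it Ambn. Cdh1, an epithelial cadherin gene, was lower in both knockouts. It had 8.34 and 3.36 CPM in KO 1 and KO 2, against 19.7 and 15.7 CPM in WT 1 and WT 2. Krt14 had 156 and 228 CPM in KO 1 and KO 2, against 513 and 235 CPM in WT 1 and WT 2. Epcam overlapped, at 13.8 and 3.41 CPM in KO 1 and KO 2, and 21.7 and 4.57 CPM in WT 1 and WT 2. Of 9 tested dental mesenchyme markers among 10, 6 were higher and 0 were lower in both knockouts. They summed to 3900 and 3477 CPM in KO 1 and KO 2, against 1023 and 1396 CPM in WT 1 and WT 2, most of it the homeobox gene Msx1. Of 11 tested leukocyte markers among 12, 10 were lower in both knockouts, with sums of 876 and 223 CPM in KO 1 and KO 2 against 5276 and 1947 CPM in WT 1 and WT 2. The T cell marker Cd3e was at 0 in all 4 libraries. All 8 erythroid markers were lower in both knockouts, with sums of 76.2 and 98.8 CPM in KO 1 and KO 2 against 398 and 374 CPM in WT 1 and WT 2. Among 8 odontoblast markers, 2 were higher and 3 lower in both knockouts, and among 8 endothelial markers 0 and 4. Of 6 tested Schwann cell markers among 7, 1 was higher and 3 were lower, with sums of 118 and 157 CPM in KO 1 and KO 2 against 369 and 539 CPM in WT 1 and WT 2. For pericytes and smooth muscle 0 of 6 were higher and 1 was lower. In such mixed cells, fewer cells of a type and less RNA per cell cannot be told apart, and the part of these markers in the values of Wls, Ror2 and Celsr1 was not tested.

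Set on a scale per kilobase of annotated exon, Wls was the most abundant of the 10 genes and Celsr1 the least in every library. Wls averaged 86.4 ± 1.02 CPM per kilobase in knockouts and 25.9 ± 5.61 in controls (SD, n = 2 each). Celsr1 averaged 0.192 ± 0.136 CPM per kilobase in knockouts and 0.808 ± 0.141 in controls. The other 8 genes lay between these. In knockouts they ran in the order Porcn (10.2 ± 3.01 CPM per kilobase), Ror2 (10.1 ± 7.34), Vangl2 (9.29 ± 2.40), Prickle1 (6.74 ± 2.27), Ryk (5.21 ± 0.012), Vangl1 (4.45 ± 0.17), Prickle2 (3.51 ± 0.42) and Ror1 (3.49 ± 0.92). In controls the order was Prickle1 (6.77 ± 4.27 CPM per kilobase), Vangl2 (6.52 ± 0.039), Porcn (5.91 ± 1.59), Ror1 (4.46 ± 3.34), Vangl1 (3.26 ± 1.74), Ryk (2.44 ± 1.44), Ror2 (2.18 ± 0.15) and Prickle2 (1.72 ± 0.66). Neighbours in these orders differed by less than the larger of their SDs, except in knockouts Vangl2 above Prickle1, Ryk above Vangl1 and Vangl1 above Prickle2. The place of Ror2 among the 10 varied most between libraries: it held rank 6 and rank 2 in KO 1 and KO 2, and rank 5 and rank 9 in WT 1 and WT 2.

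The list of Wnt trafficking and lipid partners also held genes that act outside the cell or at its surface, such as Notum and Gpc6. In 7 of its 15 genes both knockouts lay above both controls, and in 0 below (25.8% and 24.8% of all genes tested). The median log2 fold change was 0.47. In edgeR 0 of 15 passed. At an unadjusted p under 0.05, 5 were on the higher side and 0 on the lower (7.32% and 9.89% of all genes tested). DESeq2 called 2 higher, Notum and Gpc6, and 0 lower (2.72% and 5.7%). These shares over all genes also stand behind the counts for the other related lists. Notum, a secreted enzyme that removes the lipid of Wnt proteins, had 10.1 and 15.0 CPM in KO 1 and KO 2, against 0.971 and 1.78 CPM in WT 1 and WT 2. Its fitted ratio was 9.07 (log2 fold change 3.18, SE 0.66, edgeR adjusted p = 0.152), and it passed in DESeq2 (adjusted p = 0.000489). Gpc6, a glypican of the cell surface, had 129 and 163 CPM in KO 1 and KO 2, against 42.5 and 69.9 CPM in WT 1 and WT 2. Vps26b, a subunit of the retromer that recycles cargo such as Wls from endosomes, had 72.1 and 84.0 CPM in KO 1 and KO 2, against 40.7 and 42.2 CPM in WT 1 and WT 2. The knockouts were above the controls in each of these genes, and so they were in Tmed10, a cargo receptor of the early secretory pathway. Tmed10 had 657 and 638 CPM in KO 1 and KO 2, against 380 and 344 CPM in WT 1 and WT 2. In 8 of the 15 genes the groups overlapped, and 4 of these are named after their values were seen. Vps26a, the paralogue of Vps26b, had 125 and 95.4 CPM in KO 1 and KO 2, against 270 and 111 CPM in WT 1 and WT 2 (log2 fold change -0.79). The log2 fold change was 0.16 for the retromer gene Vps35, -0.0024 for Tmed5 and -0.15 for the glypican gene Gpc4.

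Among 18 tested genes of 19 further polarity genes, both knockouts lay above both controls in 7 and below them in 1, with a median log2 fold change of 0.42. In edgeR 0 of 18 passed, and 4 were higher and 1 lower at an unadjusted p under 0.05, while DESeq2 called 2 higher and 0 lower. Ankrd6, the vertebrate relative of the fly polarity gene diego, had 171 and 247 CPM in KO 1 and KO 2, against 68.4 and 54.0 CPM in WT 1 and WT 2. Its fitted ratio was 3.41 (log2 fold change 1.77, SE 0.36, edgeR adjusted p = 0.152). DESeq2 called it (adjusted p = 0.00225), and limma-voom did not (0.0866). With 1 library left out, its log2 fold change ranged from 1.53 (without KO 2) to 2.02 (without KO 1). Intu, a polarity effector needed for cilia, had 16.9 and 25.2 CPM in KO 1 and KO 2, against 3.89 and 7.23 CPM in WT 1 and WT 2. It passed in DESeq2 (adjusted p = 0.0228) and not in edgeR (0.176). Ptk7, a kinase-like polarity receptor, averaged 410 ± 164 CPM in knockouts and 190 ± 44.0 CPM in controls (SD, n = 2 each). Among the Dishevelled adaptors, Dvl3 had 18.3 and 28.03 CPM in KO 1 and KO 2, against 5.76 and 10.9 CPM in WT 1 and WT 2. Dvl1, named after its values were seen, was the 1 gene of the list with both knockouts below both controls, at 5.32 and 3.86 CPM in KO 1 and KO 2 against 13.7 and 10.02 CPM in WT 1 and WT 2. Dvl2 overlapped, with 47.5 and 72.5 CPM in KO 1 and KO 2 against 143 and 38.8 CPM in WT 1 and WT 2. Of the polarity frizzleds, Fzd3 averaged 39.5 ± 0.79 CPM in knockouts and 29.4 ± 0.60 CPM in controls, and Fzd6 overlapped at 21.8 ± 6.02 CPM in knockouts and 23.4 ± 10.7 CPM in controls.

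Noncanonical ligands showed no common direction, with a median log2 fold change of 0.019 over 7 genes. Both knockouts lay above both controls in 3 and below in 1, edgeR and DESeq2 called 0, and 0 had an unadjusted p under 0.05 in edgeR. Wnt5a, the ligand of the Ror receptors, had 178 and 172 CPM in KO 1 and KO 2, against 69.0 and 164 CPM in WT 1 and WT 2. KO 2 and WT 2 were close and WT 1 stood apart, and the log2 fold change was 0.58 (SE 0.46, edgeR adjusted p = 0.580). Wnt11 had 9.93 and 10.6 CPM in KO 1 and KO 2, against 7.15 and 5.20 CPM in WT 1 and WT 2. Wnt7a, with 10 and 0 counts in KO 1 and KO 2 against 18 and 26 counts in WT 1 and WT 2, had few counts in every library. Wnt16 ranged from 0.614 to 1.45 CPM in knockouts and from 0.0694 to 8.06 CPM in controls, so WT 2 alone was high.

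Of 25 downstream effectors, both knockouts lay above both controls in 7 and below in 6, close to the 25.8% and 24.8% of all genes tested, with a median log2 fold change of 0.0051. In edgeR 0 passed, and 4 were higher and 3 lower at an unadjusted p under 0.05, while DESeq2 called 0 higher and 2 lower. The calcium/calmodulin kinase genes Camk2a and Camk2b were on the lower side. Camk2a had 4.66 and 4.98 CPM in KO 1 and KO 2, against 25.1 and 11.3 CPM in WT 1 and WT 2, and Camk2b had 3.58 and 4.31 CPM in KO 1 and KO 2, against 12.6 and 15.3 CPM in WT 1 and WT 2. Both passed in DESeq2 (adjusted p = 0.0303 for Camk2a and 0.0393 for Camk2b) and neither in edgeR (0.187 and 0.179). Camk2g of the same family, named after its values were seen, lay on the other side, with 57.2 and 82.9 CPM in KO 1 and KO 2 against 30.3 and 39.3 CPM in WT 1 and WT 2. Also on the higher side, Mapk9, a c-Jun N-terminal kinase gene, had 55.2 and 86.9 CPM in KO 1 and KO 2, against 23.8 and 33.0 CPM in WT 1 and WT 2. Prkca, a protein kinase C gene, had 72.8 and 71.8 CPM in KO 1 and KO 2, against 34.5 and 40.3 CPM in WT 1 and WT 2.

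**Figure D4:**
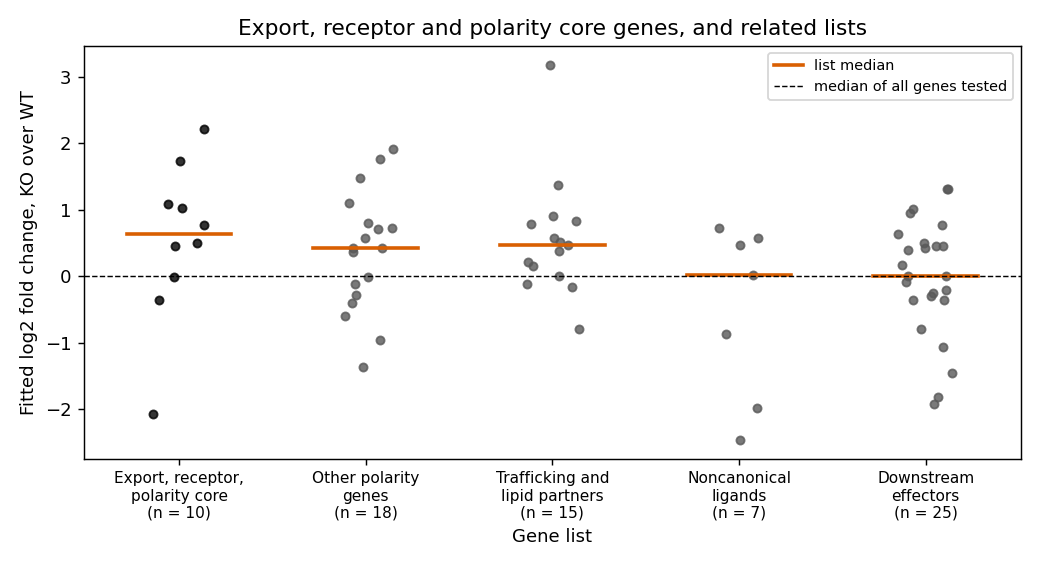
Fitted log2 fold change, knockout over control, of each tested gene in the set of 10 and in the 4 related lists, with list medians (orange) and the median of all genes tested (dashed). Medians run from 0.64 in the set of 10 to 0.0051 in the downstream effectors, and each list holds genes on both sides of 0.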

How the data were processed

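Per the labels' protocols, cDNA of polyadenylated RNA was primed with oligo-dT, extended by template switching, amplified by PCR and cut with a transposase kit. Such libraries mark neither strand nor molecules. The authors deposited raw counts, as whole numbers for each Ensembl ID. The submitters' processing notes name featureCounts 2.0.1, Bowtie2 2.3.5.1, Trim Galore 0.6.6 and the build GRCm38. Not given in the sources used here were the annotation release, the strand setting and the handling of multi-mapping reads. Each of the 4 columns was matched to its sample by name. Symbols and exon lengths came from GENCODE M21 (GRCm38), which held 55227 of the 55487 IDs.

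Counts of the 17128 genes kept by filterByExpr were tested with edgeR 4.0.16 (R 4.3.3): TMM scaling, quasi-likelihood F-test on genotype, two-sided, Benjamini-Hochberg adjustment over all genes, threshold 0.05. CPM used TMM-scaled totals. SE is the absolute log2 fold change over the square root of F. DESeq2 1.42.0, limma-voom (limma 3.58.1), other scalings, no filter, a replicate block and leaving out libraries were alternatives. Shares have 95% Wilson intervals (scipy 1.17.1). The fits were tested on simulated counts with a smaller spread than these libraries, which checks the code and not the calls made here. The libraries of a group were no copies of each other (chi-square of their counts, divided by the number of genes, 79.5 for the knockouts and 130 for the controls). The 10 genes, related lists and markers were chosen with earlier results of these data known. From each related list, the up to 4 genes with the smallest edgeR p were named, with Fzd3, Fzd6, Dvl2, Ptk7, Wnt5a and Wnt11 added whatever their values.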

Additional observations from a re-analysis of the deposited data

How the results depend on the processing

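Over 10 alternatives, 89 of 100 combinations of gene and setting kept the direction and the side of the threshold of the 10 genes, 5 passed 0.05 and 6 turned the sign. The 5 were Wls and Ror2 in DESeq2 and in unfiltered edgeR, and Ror2 without KO 1. The unfiltered fit estimated infinite prior degrees of freedom, so its p-values ignore each gene's own spread. The number of genes called was 472 higher and 990 lower in DESeq2, 449 and 1005 without the filter, and 0 and 0 with other scalings or limma-voom. With 1 library left out it ranged from 0 to 215 higher and from 0 to 703 lower; without WT 2 it was 0 in both directions.

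The replicate block called 59 genes higher and 185 lower, none of them among the 10 genes (Wls had an edgeR adjusted p of 0.0520). The labels name no pairing, and the deviations of same-numbered libraries correlated at 0.145 across genes. Prickle1 turned to 0.0014 with library totals only, 0.088 in limma-voom and 0.11 with the replicate block, and ranged from -0.52 to 0.82 with 1 library left out. In the same leave-out fits Ror1 ranged from -0.95 to 0.71, Fzd6 from -0.49 to 0.43 and Dvl2 from -1.28 to 0.65. Wnt16 ranged from -2.94 to 3.74, the latter without WT 2 and resting on 1 count in WT 1. The count of the 10 genes with every knockout kept above every control kept ranged from 6 to 9 (9 without WT 2). Below, it ranged from 1 to 3 (3 without WT 1). With a library left out such an order is easier to meet. Its share over all genes was not computed, so these counts cannot be set beside those from all 4 libraries. The causes were not tested. With 2 libraries a group, and 1 where a library is left out, the spread of a group is poorly known.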

Other observations

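Other paralogues of the polarity genes, chosen after their values were seen, were low or overlapped. Celsr2 had 3.63 and 0.727 CPM in KO 1 and KO 2, against 5.20 and 3.30 CPM in WT 1 and WT 2. Celsr3 had 0.614 and 2.52 CPM in KO 1 and KO 2, against 0.278 and 2.85 CPM in WT 1 and WT 2. The 3 Celsr genes together held 145 and 77 counts in KO 1 and KO 2, against 223 and 220 counts in WT 1 and WT 2. Prickle3 had 20.4 and 13.1 CPM in KO 1 and KO 2, against 20.5 and 20.2 CPM in WT 1 and WT 2, and Prickle4 did not pass the filter on low counts. The 4 Prickle genes together had 12.6 and 14.9 CPM per kilobase in KO 1 and KO 2, against 9.22 and 16.4 CPM per kilobase in WT 1 and WT 2, so their sum overlapped between the groups.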
